A study of Mus musculus with 22 samples.

Results

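Chondroitin sulfate is a long sugar chain carried by proteoglycans, in which glucuronic acid alternates with N-acetylgalactosamine. After or while the chain is built, sulfotransferases add sulfate groups at set positions of these sugars, and epimerases turn glucuronic acid into iduronic acid, which makes a stretch of the chain dermatan sulfate. The 10 genes that encode these modifying enzymes in the mouse (Chst3, Chst7, Chst11, Chst12, Chst13, Chst14, Chst15, Ust, Dse and Dsel) were measured in embryonic forelimbs with and without Chsy1, the gene of chondroitin sulfate synthase 1, which extends the chain itself. They were chosen by function from a list of names, and 17 of the 41174 non-control probes on the arrays belonged to them. All 10 genes were tested, through 15 of these probes, among 18642 genes and unnamed probes tested in all. In growing limbs the sulfation of these chains is known above all from cartilage: mice without Chst11 have a severely disordered growth plate, and inherited loss of CHST3 in humans gives a skeletal dysplasia.

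The data are 22 two-colour oligonucleotide arrays, 13 of Chsy1 knockout forelimbs and 9 of wild-type forelimbs. Embryos of both genotypes were of strain 129 and aged 13.5 days. RNA of every sample carried the dye Cy5 and was hybridised against the same commercial mouse reference RNA carrying Cy3, with no dye swap, so each value below is a log2 ratio of forelimb to reference in which any dye bias of a probe remains. The labels state neither which stretch of Chsy1 was altered nor whether a sample is 1 embryo or a pool, so p-values measure the spread between these samples. In a whole limb, fewer cells of a type and less RNA per cell cannot be told apart.

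Chsy1 checks the labels. Its log2 ratio averaged -4.38 ± 1.39 in knockout (SD, n = 13) and 1.73 ± 0.28 in wild type (SD, n = 9), but the array labelled knockout 1 stood at 0.15, where the median of its group was -4.73 and the wild-type arrays ran from 1.28 to 2.02. The difference was -6.11 on all arrays (limma adjusted p = 1.29e-08) and -6.49 without knockout 1. Array wild-type 1 also stood apart: the means of the cartilage, skeletal muscle and endothelium markers were lowest there, by 1.15, 0.62 and 0.99 below the wild-type mean on the log2 scale, and knockout 12 was the next lowest. Results that rest on these arrays are given with and without them below. None of the 14 cartilage, 12 tested muscle or 10 endothelium markers passed the test between genotypes. Summed over the cartilage list, ratios to the reference were 101.8 to 173.8 in knockout and 75.5 to 207.2 in wild type. The forelimb factor Tbx5 stood at 2.41 ± 0.25 in knockout and 2.20 ± 0.56 in wild type, while Pitx1, known as a hindlimb factor, stood at 5.45 ± 0.15 in knockout and 5.64 ± 0.27 in wild type, both relative to a reference of unknown content for these genes. The arrays lay on 6 slides that each held both genotypes. Of the positions on a slide only position 2 held both, with 3 arrays of each, knockout 1 among them. With position as a block, a difference between genotypes therefore rests on those arrays alone. Differences within position 2 were not computed without knockout 1.

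No gene of the 10 passed the test between genotypes. With limma, 0 of 10 had an adjusted p under 0.05, where 4 of all 18642 genes did (0.0215%). At an unadjusted p under 0.05 there was 1 of 10, Dse, against 993 of all genes (5.33%), of which those lower in knockout were 3.95% and those higher were 1.38% of all genes. Over probes, 0 of 15 passed (0.0144% of all tested probes did) and 1 of 15 had an unadjusted p under 0.05 (4.79% of all). The log2 difference, knockout minus wild type, was below 0 for 6 of the 10 (53.4% of all genes) and above 0 for 4 (46.6% of all). Its median was -0.027 over the 10 genes and -0.0072 over all genes, and the median size without sign was 0.042 over the 10 and 0.058 over all genes. The groups overlapped for each of the 10 genes, and 1 of all genes had groups without overlap (0.00536%). The 95% intervals held every one of the 10 differences within 1.26-fold in either direction, Dse having the widest bound. The added offset of 50 compresses ratios of dim probes, and without it the widest bound was 1.63-fold, of Chst13. With the scanner software's own ratio that bound was 2.40-fold, again of Chst13, and with the slide position as a block it was 1.61-fold, of Ust. Without knockout 1 and likewise without wild-type 1, 0 of the 10 passed, and without wild-type 1 the differences of Chst3 and Chst15 turned to -0.022 and -0.062.

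**Figure D1:**
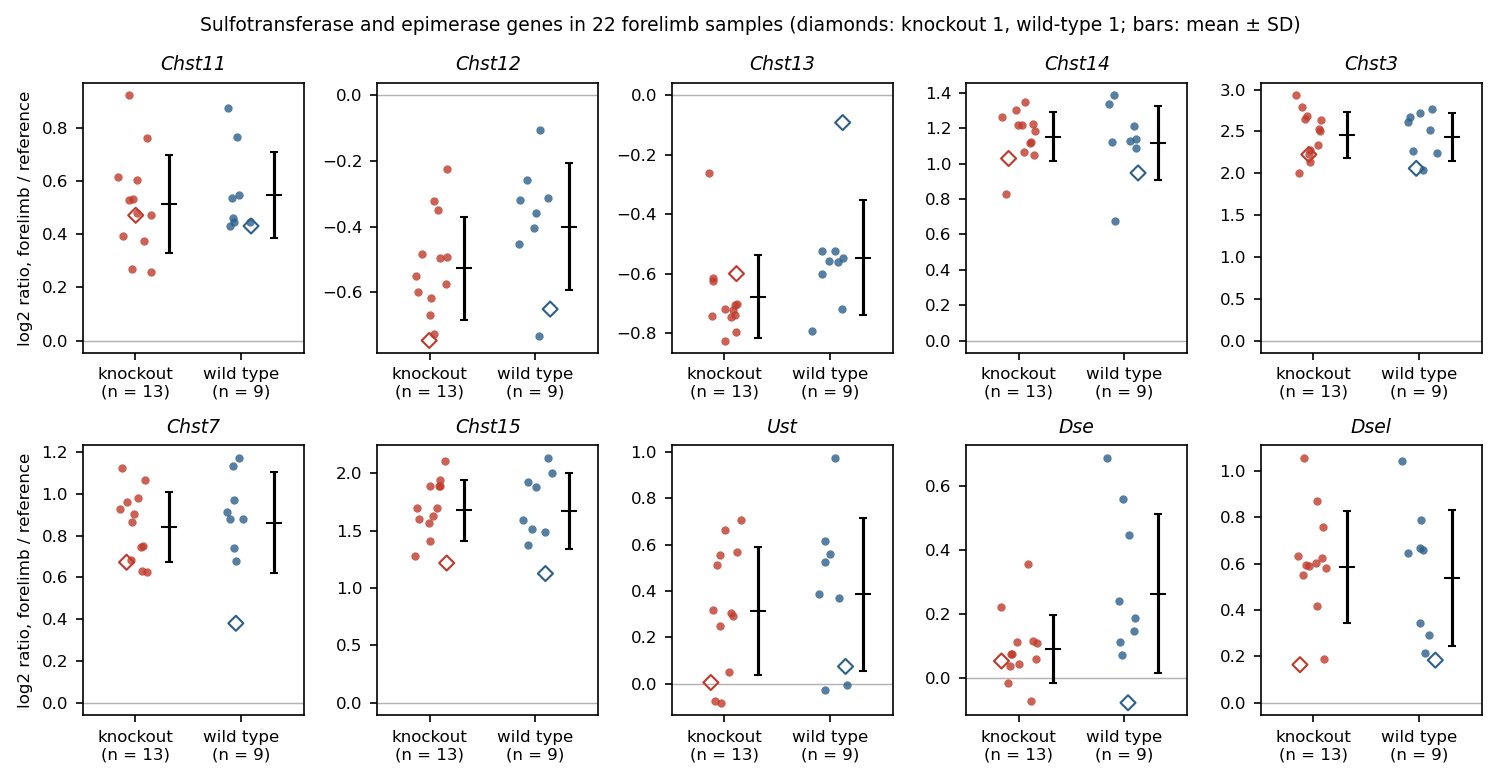
Log2 ratio of forelimb to reference for the brightest probe of each gene, 1 point per array, with the mean and SD of each genotype (13 knockout, 9 wild-type arrays) beside the points; open diamonds are knockout 1 and wild-type 1, and each panel has its own scale. The 2 groups overlap in all 10 panels.

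Sulfate at the 4-O position of N-acetylgalactosamine is added by Chst11, Chst12 and Chst13 on chondroitin. Chst11 ran from 0.26 through a median of 0.48 to 0.93 in knockout forelimbs, against 0.43, 0.46 and 0.88 in wild-type forelimbs. The groups overlap, with 4 knockout arrays below every wild-type array and 1 above. The mean was 0.52 ± 0.19 in knockout and 0.55 ± 0.16 in wild type, a difference of -0.035 (SE 0.076, 95% interval -0.19 to 0.12, limma adjusted p = 0.98). Chst11 has 3 probes, all on chromosome 10 in the mm8 coordinates of the files (82621672 to 82621731, 82625245 to 82625304 and 82625451 to 82625510, plus strand), and they gave -0.027, -0.025 and -0.035 in that order. The third probe is the brightest. The first is dimmer, with a median Cy5 signal of 106 in knockout and 97 in wild type, against 567 and 549 for the third. In deviations from the genotype means over arrays, the first had r = -0.11 with the third, and the second had r = 0.83. For the mm8 build no gene annotation was used here, so exon and UTR are not stated for any probe.

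Chst12 had log2 ratios of -0.75, -0.55 and -0.22 in knockout forelimbs (lowest, median and highest), against -0.73, -0.36 and -0.11 in wild-type forelimbs. Most knockout arrays, 10 of 13, lie below the wild-type median, and 1 lies below all wild-type arrays. The difference was -0.13 (SE 0.075, interval -0.28 to 0.027, limma p = 0.10, adjusted p = 0.92). A second probe, which overlaps the first on chromosome 5 (140777609 to 140777668, against 140777647 to 140777706, plus strand), gave -0.088 with an interval of -0.18 to 0.0018. The share of knockout arrays below the wild-type median was similar for Chst13, 12 of 13. Chst13 had -0.82, -0.72 and -0.26 in knockout forelimbs, against -0.79, -0.56 and -0.09 in wild-type forelimbs. The difference was -0.13 (SE 0.072, interval -0.28 to 0.018, limma p = 0.082, adjusted p = 0.92). This gene rests on 1 dim probe (chromosome 6, 90274290 to 90274349, minus strand), whose Cy5 signal was well above background on 3 of 13 knockout and 6 of 9 wild-type arrays. The probe thus only just met the 9 arrays required for a test, mostly through wild type, the group where its ratio was higher. Its highest value in wild type, -0.09, is that of wild-type 1, and without that array the difference was -0.073. It was -0.31 without the offset and -0.53 with the scanner software's ratio, so its size depended on how dim signals were treated.

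Chst14 adds the 4-O sulfate to dermatan, next to iduronic acid. It had 0.83, 1.19 and 1.35 in knockout forelimbs (lowest, median and highest), against 0.68, 1.13 and 1.39 in wild-type forelimbs, and all knockout arrays lie inside the wild-type range. The mean was 1.15 ± 0.14 in knockout and 1.12 ± 0.21 in wild type, a difference of 0.036 (interval -0.12 to 0.19). Its 1 probe, named D4st1 in the files, lies on chromosome 2 (118619881 to 118619940, plus strand). Within position 2 the 3 knockout arrays differed from the 3 wild-type arrays by -0.13, the other direction.

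The 6-O position of N-acetylgalactosamine is the site of Chst3 and Chst7. Chst3 had 2.01, 2.50 and 2.93 in knockout forelimbs, against 2.04, 2.51 and 2.77 in wild-type forelimbs. The groups share most of their range, with 1 knockout array below and 2 above all wild-type arrays. The difference was 0.025 (SE 0.12, interval -0.21 to 0.26). The probe lies on chromosome 10 (59577115 to 59577174, minus strand), and a second probe was well above background on 0 arrays and was not tested. Chst7 had 0.62, 0.86 and 1.13 in knockout forelimbs, against 0.38, 0.88 and 1.17 in wild-type forelimbs. Its lowest value is that of wild-type 1, and the knockout arrays lie inside the wild-type range. The difference was -0.020 (interval -0.20 to 0.16), and the probe lies on the X chromosome (19254255 to 19254314, plus strand).

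Chst15 adds a 6-O sulfate to an N-acetylgalactosamine that already carries one at 4-O. It had 1.22, 1.69 and 2.11 in knockout forelimbs, against 1.13, 1.59 and 2.14 in wild-type forelimbs, and the lowest arrays of the groups were knockout 1 and wild-type 1. The difference was 0.0058 (SE 0.12, interval -0.24 to 0.26), through a probe named 4631426J05Rik in the files (chromosome 7, 132074615 to 132074674, minus strand). Ust adds sulfate to the uronic acid at 2-O. It ran from -0.08 through 0.30 to 0.71 in knockout forelimbs, against -0.03, 0.39 and 0.97 in wild-type forelimbs. Both groups thus stretch from just below to well above the reference. The difference was -0.073 (SE 0.12, interval -0.33 to 0.18). Its tested probe is on chromosome 10 (7894948 to 7895007, minus strand), and a second one, well above background on 3 knockout and 4 wild-type arrays, was not tested.

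Dse and Dsel encode the epimerases that form iduronic acid. Dse, called Sart2 in the files, had -0.07, 0.07 and 0.36 in knockout forelimbs (lowest, median and highest), against -0.08, 0.19 and 0.69 in wild-type forelimbs. The 3 highest arrays are wild-type 3, 6 and 9, the lowest of all is wild-type 1, and 11 of 13 knockout arrays lie below the wild-type median. The mean was 0.09 ± 0.11 in knockout and 0.26 ± 0.25 in wild type, a difference of -0.17 (SE 0.077, interval -0.33 to -0.015), which is 1.13-fold. Its limma p was 0.033 unadjusted and 0.92 after adjustment over all genes, so it did not pass. Over 40 settings, counting each omission of an array, the difference stayed between -0.22 and -0.12 and the unadjusted p was under 0.05 in 31, with adjusted p from 0.47 upward. Differences with median centring are counted there relative to the median of all genes, 0.24. Before that subtraction the median-centred means were 0.69 in knockout and 0.60 in wild type, the other direction. For planned median centring the p is that of the limma test before the subtraction. The unadjusted p was 0.069, 0.094, 0.084 and 0.052 in limma without wild-type 3, 6 or 9 or knockout 13. Among other settings, it was also not under 0.05 with the scanner software's ratio or with the slide position as a block. The same held for median centring tested against the median of all genes (limma adjusted p = 0.65). Knockout was lower on 4 of 6 slides, by differences from -0.55 to 0.08, and by -0.19 within position 2. The probe lies on chromosome 10 (33841486 to 33841545, minus strand).

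Dsel, called 9330132E09Rik in the files, had 0.16, 0.59 and 1.06 in knockout forelimbs, against 0.18, 0.65 and 1.04 in wild-type forelimbs. The ranges of the groups nearly coincide, with knockout 1 and wild-type 1 at their lower ends. The difference was 0.049 (SE 0.11, interval -0.18 to 0.27), and the 2 other probes gave 0.066 and -0.034. The 3 probes lie on chromosome 1 (113686408 to 113686467, 113688604 to 113688663 and 113691057 to 113691116, minus strand). Within position 2 the difference was -0.11. The knockout arrays there stood at 0.16 (knockout 1), 0.55 and 0.60, against a wild-type mean of 0.55. Over all positions, the difference was 0.0046 without wild-type 1 and 0.084 without knockout 1.

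**Figure D2:**
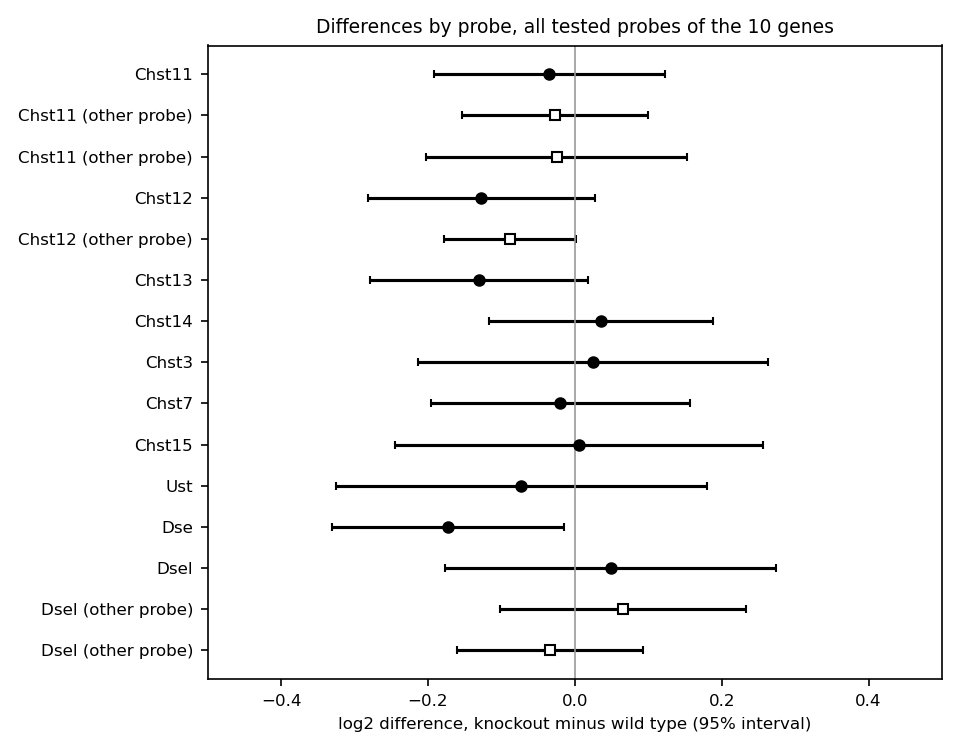
Log2 difference, knockout minus wild type, with its 95% interval for the 15 tested probes of the 10 genes; filled circles are the brightest probe of each gene, used in the test over genes, and open squares are other probes. Every interval but that of Dse (-0.33 to -0.015) includes 0, and the second Chst12 probe reaches 0.0018.

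Against the reference, the direction was steadier than between genotypes. Through the brightest probe of each gene, Chst3, Chst7, Chst11, Chst14, Chst15 and Dsel, 6 of the 10, lay above the reference on all 22 arrays. Chst12 and Chst13 lay below it on all 22. Other tested probes did not all share this direction. A dimmer Chst11 probe averaged -0.16 in knockout and -0.13 in wild type, and the third Dsel probe stood at -0.11 in wild-type 4. Ust was above on 18 arrays and Dse on 19. These directions are a description with no test, since a probe's dye bias enters them. They held for the first 6 genes and for Chst13 under 4 other treatments of the signals, but with median centring in place of loess Chst12 was above the reference on 15 of 22 arrays.

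**Figure D3:**
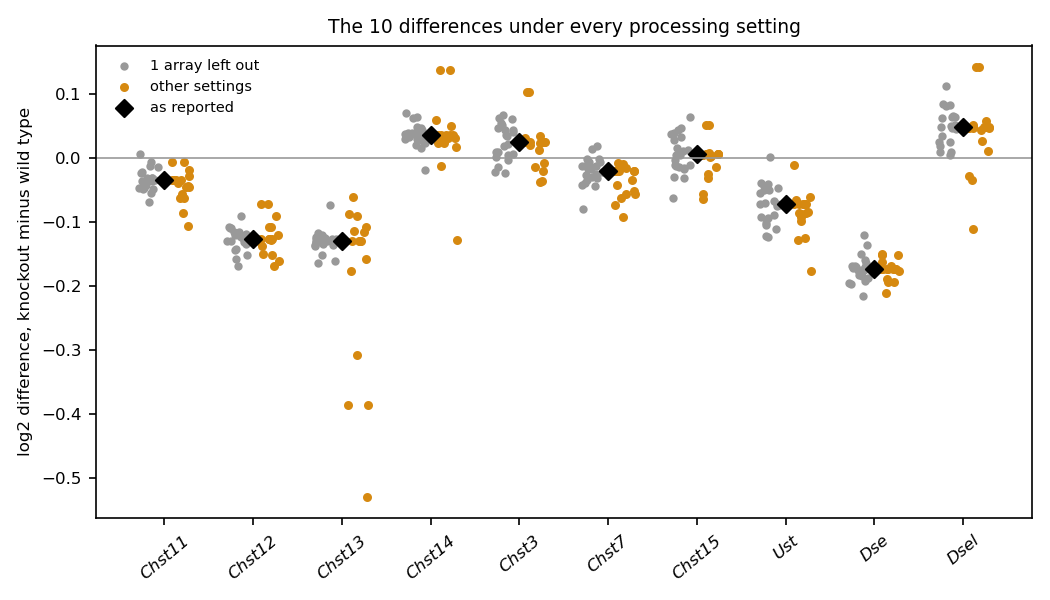
Log2 difference, knockout minus wild type, of each gene as reported (black diamonds), with 1 array left out (grey) and under the other settings (orange), including the slide, position and replicate blocks and other treatments of background and scaling. Dse stays between -0.22 and -0.12 and Chst12 between -0.17 and -0.072, Chst13 reaches -0.53, and Chst3, Chst7, Chst11, Chst14, Chst15, Ust and Dsel have values on both sides of 0. Values with median centring are relative to the median of all genes, 0.24. Before that subtraction Dse and Chst12 were higher in knockout (0.69 against 0.60, and 0.17 against 0.0043).

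The spread between forelimbs of 1 genotype was larger than these differences. Around the genotype means, the SD was 0.30 for Ust, 0.29 for Chst15, 0.28 for Chst3, 0.26 for Dsel and 0.20 for Chst7, and 0.16 to 0.18 for the other 5 genes. The median over all genes was 0.19, so 5 of the 10 lay above it and 5 below. For 45 pairs of the 10 genes, deviations from the genotype means were correlated over the 22 arrays, with permutation tests of 100000 resamples within genotypes and adjustment over the 45. Of these, 11 pairs passed an adjusted p of 0.05, all with r above 0, and 7 pairs passed by rho. An r of 0.5 or more in size was found in 12 of the 45 pairs (26.7%), where the share of all named genes at that r was 20.5% averaged over the 10 genes, so the count of pairs is close to what genes in general gave on these arrays. Pairs past the adjusted p of 0.05 numbered 5 without wild-type 1 and 7 without knockout 1, so part of that count rests on these arrays. The pairs that no longer passed without wild-type 1 had r of 0.50 to 0.59 there. Chst11, Chst13 and Dse were in none of the 11.

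The 3 highest correlations joined genes of enzymes with different reactions. Chst12 and Ust had r = 0.88 and rho = 0.86 (adjusted permutation p = 0.00015 and 0.00022), and r = 0.86 without the 2 arrays farthest out. Chst3 and Chst15 had r = 0.85 and rho = 0.87 (adjusted permutation p = 0.00015 and 0.00022), and r = 0.84 without the 2 farthest. Ust and Dsel had r = 0.81 and rho = 0.74 (adjusted permutation p = 0.00015 and 0.003), and r = 0.74 without the 2 farthest. The unadjusted permutation p of each r, 1e-05, is the smallest that the resamples can give. The r values were 0.86, 0.88 and 0.86 with slide means removed and 0.88, 0.86 and 0.84 with position means removed, in the same order. Without wild-type 1 they were 0.87, 0.83 and 0.79, and with the scanner software's ratio 0.71, 0.82 and 0.80. The other pairs that stayed past the threshold without wild-type 1 were Chst7 with Ust (r = 0.67 on all arrays) and Chst12 with Dsel (0.68).

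**Figure D4:**
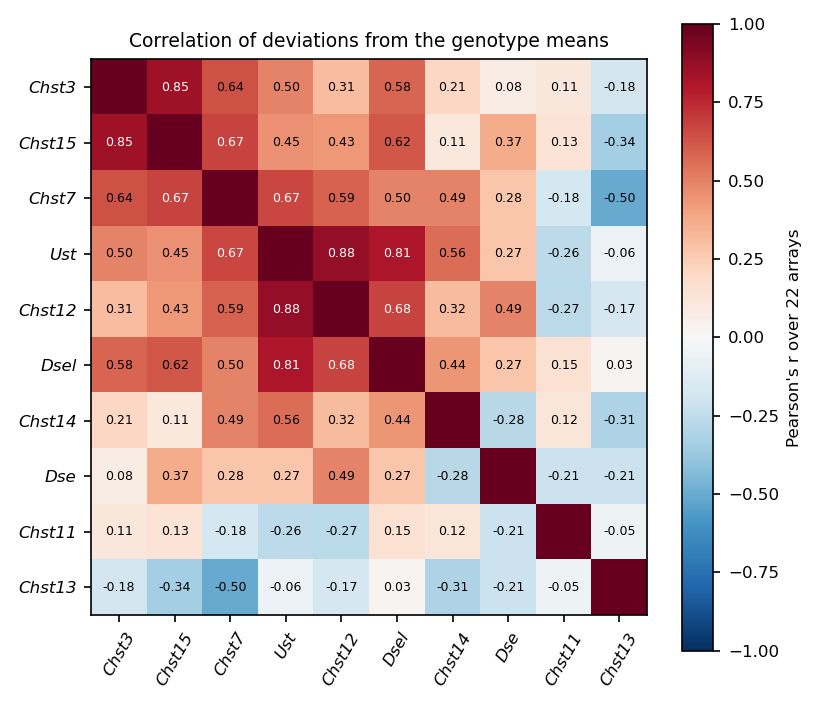
Pearson's r over 22 arrays between deviations of the 10 genes from their genotype means, from -1 (blue) to 1 (red). The darkest cells off the diagonal are Chst12 with Ust (0.88), Chst3 with Chst15 (0.85) and Ust with Dsel (0.81), while Chst11 and Chst13 are pale against most others.

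**Figure D5:**
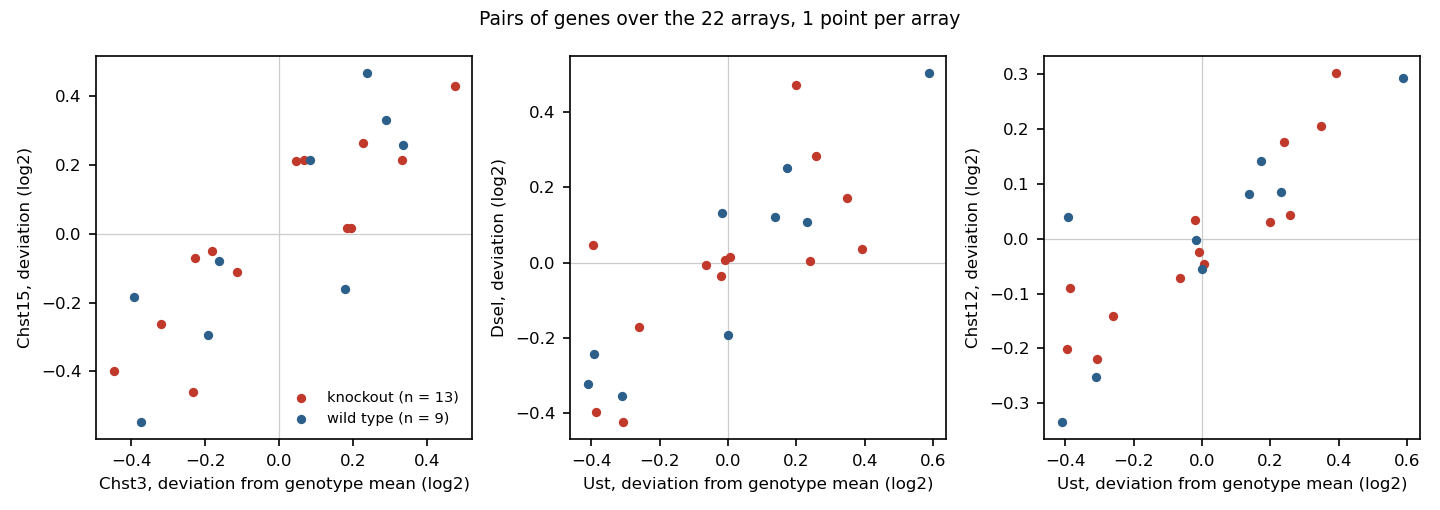
Deviations from the genotype mean (log2) of Chst15 against Chst3, Dsel against Ust and Chst12 against Ust, 1 point per array, knockout red (n = 13) and wild type blue (n = 9). Arrays of both genotypes lie along each diagonal.

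Such correlations were common on these arrays. Of all other named genes, 33.9% had r of 0.5 or more in size with Ust, 31.1% with Dsel, 25.7% with Chst12 and 25.6% with Chst7. The share was 21.9% with Chst14, 20.2% with Chst13, 16.2% with Chst3, 13.8% with Chst15, 9.66% with Dse and 7.40% with Chst11. Chst3 ranked 3 among 16164 named genes by its r with Chst15, and Chst15 ranked 13 by its r with Chst3. Ust ranked 33 by its r with Chst12, while Chst12 ranked 207 by its r with Ust, and Dsel ranked 633. A second look through other probes, added after the data were seen, gave 8 correlations in 1 family. The second Dsel probe had r = 0.76 with Ust (rho = 0.77, adjusted permutation p = 0.0008), and the third, dimmer one had r = 0.03. The overlapping second Chst12 probe had r = 0.04 with Ust and 0.35 with the first Chst12 probe, so the correlation of Chst12 with Ust was not seen through it. For Chst3, Chst15 and Ust 1 probe each was tested, and theirs could not be checked in this way.

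Leaving out the 10 genes themselves, the named genes most like each of them over the 22 arrays, by r, were Zbtb34, Ank2 and Crim1 for Chst3 (0.88, 0.88 and 0.87) and Ndrg2, Celsr2 and Tafa2 for Chst15 (0.91, 0.90 and 0.85). Those of Ust included Rps6kc1 and Gosr2 (0.96 each), and those of Dsel were Casp9, Tmem168 and Armcx3 (0.93, 0.93 and 0.92). The nearest gene was Agpat3 for Chst12 (0.94), Cntnap2 for Chst7 (0.93), Dab2 for Chst14 (0.93), Grap2 for Chst13 (0.92), Tpbg for Dse (0.91) and Olfr974 for Chst11 (0.84). The highest r among so many genes is high by selection, so these are names and not tests.

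The promoters of Chst3 and Chst15 and of Ust and Dsel are shown because the genes of each pair varied together over the arrays. They are the 250 bases before the start given by RefSeq on GRCm38.p6, 5′ to 3′ along the gene, and capitals mark the GC box GGGCGG on either strand, overlapping matches included. For Chst15, which has a second listed start, the more upstream one was used.
Chst3, chr10:60219261-60219510, minus strand: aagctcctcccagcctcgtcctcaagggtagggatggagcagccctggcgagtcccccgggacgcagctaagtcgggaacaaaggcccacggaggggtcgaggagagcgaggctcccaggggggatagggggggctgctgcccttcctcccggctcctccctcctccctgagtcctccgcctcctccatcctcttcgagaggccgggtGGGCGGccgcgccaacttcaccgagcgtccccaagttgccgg
Chst15, chr7:132317229-132317478, minus strand: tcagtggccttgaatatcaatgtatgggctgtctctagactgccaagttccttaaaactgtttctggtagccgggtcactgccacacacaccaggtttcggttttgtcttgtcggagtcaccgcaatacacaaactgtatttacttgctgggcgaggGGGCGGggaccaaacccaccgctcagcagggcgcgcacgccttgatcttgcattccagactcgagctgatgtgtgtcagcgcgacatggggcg
Ust, chr10:8518826-8519075, minus strand: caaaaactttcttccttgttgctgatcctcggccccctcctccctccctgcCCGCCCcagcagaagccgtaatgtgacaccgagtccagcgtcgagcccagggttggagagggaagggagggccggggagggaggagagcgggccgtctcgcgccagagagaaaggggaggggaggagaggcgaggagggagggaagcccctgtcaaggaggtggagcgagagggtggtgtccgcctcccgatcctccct
Dsel, chr1:111864919-111865168, minus strand: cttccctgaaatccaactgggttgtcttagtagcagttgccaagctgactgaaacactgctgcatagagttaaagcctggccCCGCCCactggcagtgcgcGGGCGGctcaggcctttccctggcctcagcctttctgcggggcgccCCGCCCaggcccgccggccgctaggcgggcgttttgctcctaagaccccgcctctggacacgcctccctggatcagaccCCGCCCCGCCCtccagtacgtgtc
In windows of 300 bases that also hold the first 50 bases of the gene, all 10 genes had at least 1 GC box, as did 35.7% of all 32851 such windows. The GC content of the 10 windows was 55.0% to 75.3%, against a median of 52.7% over all windows. The CCAAT box was in 4 of the 10 windows (37.4% of all), and the E-box CACGTG was in 1, that of Chst14 (7.2% of all). The letters of a TATA box (TATAAA, 13.6% of all), a SOX core (ACAAT, 31.0%), an AP-1 site (TGANTCA, 7.8%) and a CRE (TGACGTCA, 1.8%) were in 0 of the 10, on either strand. A match of letters is a description and not a binding site.

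The genes were also set against the tissue make-up of each limb, as 30 correlations with the mean of the cartilage, muscle or endothelium markers. Chst7 with cartilage passed, with r = 0.69 (adjusted permutation p = 0.045), but rho was 0.54 (adjusted 0.11, not past the threshold) and r was 0.41 without wild-type 1 and knockout 12, the 2 arrays farthest out. The size of r thus rests in part on those 2 arrays. On all 22 arrays, r was 0.77 with slide means removed and 0.71 with position means removed (adjusted permutation p = 0.0018 and 0.013). By rho 1 of the 30 pairs passed, Chst14 with cartilage (rho = 0.64, adjusted permutation p = 0.048), for which r was 0.47 (adjusted permutation p = 0.25), 0.49 without the same 2 arrays and 0.48 without wild-type 1. Without wild-type 1 none of the 30 passed, and single omissions gave 0 to 4: 0 without wild-type 1, 3, 7 or 9 or knockout 1, 4, 6, 8, 9, 10, 11, 12 or 13, 3 without wild-type 2, and 4 without wild-type 4 or 8 or knockout 2. Chst13 with endothelium (r = -0.83) and with cartilage (r = -0.75) missed the threshold, each with an adjusted permutation p of 0.053, and had r of 0.02 and -0.05 without the same 2 arrays. Both passed with slide means removed (adjusted permutation p = 0.00060 and 0.0025) and with position means removed (0.013 each), as Chst13 with muscle did with slide means removed (0.0094). The permutations of these slide and position checks ran within genotypes only, so their p-values may be too small. In wild-type 1 and knockout 12, Chst13 lay 0.45 and 0.41 above its genotype means. A further 10 correlations with the median Cy5 signal of an array, added after the data were seen, gave none past the threshold, the highest in size being Chst14 at r = 0.56 (rho = 0.34, adjusted permutation p = 0.24). By rho the highest in size was Dse at -0.57 (adjusted permutation p = 0.13).

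The rest of the chondroitin pathway was read from lists chosen by function. Chain polymerases and initiators had 1 of 6 past the threshold, Chsy1 itself, and Csgalnact1, which starts the chain, differed by -0.36 (interval -0.62 to -0.10). Of 7 linker enzymes, which build the bridge between protein and chain, 0 passed (median difference -0.03). Of 8 genes that supply activated sulfate, the donor that all the sulfotransferases use, 0 passed (median -0.03), and Bpnt2, which clears its by-product in the Golgi, differed by -0.23 (interval -0.44 to -0.02). Of 8 genes that supply UDP-sugars 0 passed (median -0.03). Of 8 lysosomal genes of chain removal 0 passed (median -0.08), and the sulfatases Galns and Arsb, which take off 6-O and 4-O sulfate, differed by -0.19 and -0.11. Of 12 core proteins 0 passed (median -0.19), and Epyc, a small proteoglycan of cartilage, differed by -0.83 (interval -1.41 to -0.24). Over all genes 0.0215% passed, and the median difference was -0.0072. Apart from Chsy1, the genes named from these lists were picked for a small p, and their limma adjusted p was 0.91 to 0.92. The intervals given for them are not adjusted for that choice.

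Sulfotransferases of other chains gave a comparison of the same enzyme class. For heparan sulfate 0 of 12 tested genes passed (median 0.01). For keratan, N-glycan and HNK-1 chains 0 of 8 passed (median 0.11). Among these Chst8, which sulfates N-acetylgalactosamine on N-glycans of hormones, had 2.49 ± 0.35 in knockout (n = 13) and 1.75 ± 0.49 in wild type (n = 9), a difference of 0.74 with a limma adjusted p of 0.50.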

How the data were processed

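RNA of 13 Chsy1 knockout and 9 wild-type forelimb samples, grouped by genotype label, was measured in the Cy5 channel and a common reference in the Cy3 channel, per the labels' protocols. Images were read with Agilent Feature Extraction, version 9.5 in the submitters' processing notes and 9.5.3.1 in the headers. The authors' deposited intensities of spots and background are raw, and the deposited log10 ratio of each spot was computed by that software from background-subtracted, dye-normalised signals, per the file headers. The authors' deposited value table held the same log10 ratios, with 0 difference and a median of 0 in each column, and what it was centred on stays unknown. Flags are 0 or 1.

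Intensities were corrected with normexp (offset 50) and normalised by loess within arrays, without control and outlier spots. Probes with Cy5 well above background on at least 9 arrays were tested, 27803 of 41174, and the brightest probe stood for a gene. Between 27214 and 30599 of 43379 spots per array were well above background, and the number of arrays limits the precision. Names were updated through RefSeq accessions and symbols. Log2 ratios were modelled with limma 3.58.1 (R 4.3.3) on all 22 arrays without covariates, with Benjamini-Hochberg adjustment over all 18642 genes and unnamed probes. Correlations used Python 3.11.15 and scipy 1.17.1. The fit and the correlations were tested on simulated data.

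The genes, the lists and the tests were chosen with earlier results of these data known. The text names Chsy1, the 10 genes, list genes past the threshold or otherwise examples among the up to 3 of a list with the smallest p, markers, and for each of the 10 genes the up to 3 named genes of highest r outside the 10. Alternatives covered background, scaling, the scanner ratio, probe filter, probe averaging, slide, position and replicate blocks, array weights, the variance model and omitted arrays.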

Additional observations from a re-analysis of the deposited data

Results flagged for a closer look

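Chst13 in wild-type 1 had a log2 ratio of -0.092, while the nearest of the other 8 wild-type arrays stood at -0.52 and the lowest at -0.79. The gap to the nearest array was 0.62 of the range of the 9 arrays, above the critical value of 0.493 in Dixon's test. Such gaps arise by chance in about 1 in 20 groups, and the highest and lowest wild-type arrays of the 10 genes and Chsy1 were all tested. The Chst13 probe is dim, and the same array has the lowest marker means of cartilage, muscle and endothelium, whose part in this value was not tested.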

How the results depend on the processing

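The count of the 10 genes past the threshold was 0 in every planned setting and every omission of an array, and 1 in a setting added after seeing the data: median centring in place of loess, which moved the median of all genes to 0.24, with each gene tested against that median. There Chst13 differed by -0.39 (limma adjusted p = 0.011, 0.011 being the lowest of its 39 settings), and 2346 of all genes passed, 2339 of them in the dimmer of 2 equal sets of genes by intensity. The count over all genes was 2 without the offset, 7 with array weights, 6 without background correction, and 1 with slide as a block, position as a block, the scanner ratio, planned median centring, or wild-type 1 and knockout 12 left out. It was 2 to 6 over single omissions, with 2 without wild-type 2, 5 or 6. Among the 10 genes, differences near 0 changed sign. Chst3 was -0.0083 with array weights, -0.015 without background correction, -0.020 with the scanner ratio, -0.036 with the position block and -0.037 without wild-type 1 and knockout 12. Chst15 was -0.015, -0.025 and -0.032 in the first 3 of these, -0.056 with Cy5 alone and -0.064 without that pair of arrays. Chst14 was -0.013 with array weights and -0.13 with the position block. Dsel was -0.11 with the position block and -0.035 without that pair. The position-block differences are those within position 2 and not a further check. Over single omissions the ranges were -0.024 to 0.066 for Chst3, -0.062 to 0.064 for Chst15, -0.019 to 0.070 for Chst14, -0.069 to 0.0061 for Chst11, -0.080 to 0.019 for Chst7 and -0.12 to 0.00094 for Ust. The causes were not tested.

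Replicate numbers did not pair the samples: 3 of 9 same-numbered pairs had a correlation over 0.1 (range -0.31 to 0.49), and 1 knockout array correlated best with its own number. With the replicate block on 18 arrays, 1 gene of all passed and 0 of the 10, Dsel was -0.028 and Chsy1 -5.90. Gene pairs past the threshold numbered 18 with slide means removed, 33 with median centring and 5 to 13 over single omissions. Gene and marker pairs numbered 4 with slide means removed, 3 with position means removed, 0 with the scanner ratio, 22 with median centring and 0 to 4 over single omissions. With slide or position means removed, the permutations still ran within genotypes only, so those counts may be too high. Chst13, dim on most arrays, has the value least fixed by signal over background.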
